A study of Mus musculus with 8 samples.

Results

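The TCR α-chain and β-chain libraries of the same mouse were compared with each other in 8 mice with melanoma, whose own CD8+ T cells (en-T cells) had been sorted. Each mouse had 1 α-chain library and 1 β-chain library, and all 8 mice of the series entered the comparison, with 16 libraries in total. All were C57BL/6 female mice, 6 to 8 weeks old, that carried intradermal B16F10 melanoma, a transplantable tumor line of the same strain. Every mouse had its lymphocytes depleted with cyclophosphamide (CTX, 300 mg/kg) on day 3 and was given Thy1.1 Pmel-1 CD8+ T cells, which recognize gp100 of melanocytes through a transgenic receptor, on day 5, with 3 daily doses of IL-2. The CTX group (3 mice) received nothing further, and the CTX/CD4 group (5 mice) was also injected with 200 μg of the CD4-depleting antibody GK1.5 on days 10, 17 and 24. On day 25, Thy1.1-negative CD8+ cells were sorted from inguinal lymph nodes and spleen, so that the transferred cells should be absent, and both chains were amplified from 100 ng of RNA. The chain comparison asks how the repertoires built at the 2 receptor loci differ within the same cells, whatever the treatment.

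Each chain of the receptor is assembled in the thymus by joining germline segments. The α-chain joins a V to a J segment, whereas the β-chain first joins a D to a J segment and then a V to the product, so it has a further junction. At each junction nucleases trim the segment ends and terminal deoxynucleotidyl transferase adds nucleotides without a template, preferring G and C, and the joined stretch encodes CDR3, the loop that contacts the peptide. The α locus carries far more V and J segments than the β locus, and it can go on rearranging after a first join, whereas β rearrangement ends once a productive β-chain has paired with the pre-Tα chain.

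In the GENCODE vM21 annotation of GRCm38, the Trav segments spanned chr14:52427928-53977678 and the Traj segments chr14:54155005-54218842. The Trbv segments spanned chr6:40891229-41558452, the Trbd segments chr6:41533201-41542176 and the Trbj segments chr6:41533864-41543856. The files used 116 V and 44 J names in the α-chain, some of them TRDV or TRDJ names of the δ locus that lies inside the α locus, and 24 V and 12 J names in the β-chain.

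CDR3 nucleotide sequences of single clonotypes are shown first, because each comparison below counts features of such sequences. Lower case marks bases that the deposited positions place in V, D or J, and capitals mark bases that fall outside all of them, called unassigned here. The first α-chain set holds the 5 most read forms of a single CDR3 protein sequence with 6 nucleotide forms in mouse CTX 2, read 9, 8, 7, 3 and 1 times. The first β-chain set holds the 4 forms of a single CDR3 in mouse CTX/CD4 4, read 8, 8, 1 and 1 times. No library held more forms under 1 pair of V and J names in either chain.
TRAV12N-3 TRAJ23, form of 9 reads: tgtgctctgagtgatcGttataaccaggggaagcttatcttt
TRAV12N-3 TRAJ23, form of 8 reads: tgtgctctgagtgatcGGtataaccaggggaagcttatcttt
TRAV12N-3 TRAJ23, form of 7 reads: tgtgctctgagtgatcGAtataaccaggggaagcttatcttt
TRAV12N-3 TRAJ23, form of 3 reads: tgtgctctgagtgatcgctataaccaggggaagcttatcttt
TRAV12N-3 TRAJ23, form of 1 read: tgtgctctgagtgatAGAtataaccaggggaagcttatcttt
TRBV12-1 TRBJ1-2, form of 8 reads with a TRBD1 call: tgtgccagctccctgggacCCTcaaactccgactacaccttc
TRBV12-1 TRBJ1-2, form of 8 reads without a D call: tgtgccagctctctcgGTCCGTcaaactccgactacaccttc
TRBV12-1 TRBJ1-2, form of 1 read: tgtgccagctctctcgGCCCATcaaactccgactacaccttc
TRBV12-1 TRBJ1-2, form of 1 read: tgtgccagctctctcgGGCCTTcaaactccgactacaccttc
All 9 sequences are 42 bases long. The α-chain forms held 0 to 3 unassigned bases and the β-chain forms 3 to 6.

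A second set holds, for each chain, the sequence found in the most mice, with ties settled by the most reads. It also holds the abundant clonotypes with the most unassigned bases. The TRAV14N-1 TRAJ22 sequence was read in all 8 mice, 34 to 65 times each and 396 times in all, and it had 0 unassigned bases. Its deposited V part of 22 bases and J part of 38 bases overlap within its 42 bases. The TRBV14 TRBJ1-6 sequence was also read in all 8 mice, 3 to 51 times each and 220 times in all, with 2 unassigned bases. TRBV14 is also the V segment of the transferred Pmel-1 β-chain. The CDR3 was not compared with that of Pmel-1, and whether these reads came from residual transferred cells was not tested. The remaining 3 are given with the mouse in which they were found by these rules: the α-chain clonotype with the most reads of any library (138 reads in CTX/CD4 5, 13 unassigned bases), the β-chain clonotype of at least 10 reads with the most unassigned bases (16 reads in CTX 2, 10 unassigned) and the most read β-chain clonotype (162 reads in CTX/CD4 5, 9 unassigned).
TRAV14N-1 TRAJ22, in 8 mice: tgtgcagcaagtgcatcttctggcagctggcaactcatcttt
TRBV14 TRBJ1-6, in 8 mice: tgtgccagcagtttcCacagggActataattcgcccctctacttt
TRAV14D-3-DV8 TRAJ24, most read α-chain clonotype: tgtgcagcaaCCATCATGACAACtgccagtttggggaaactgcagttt
TRBV31 TRBJ2-2, most unassigned bases in β: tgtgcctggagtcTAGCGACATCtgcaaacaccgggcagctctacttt
TRBV13-3 TRBJ2-4, most read β-chain clonotype: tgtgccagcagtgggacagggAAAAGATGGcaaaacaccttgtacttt

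Depth was equal by construction, since the authors down-sampled every library to 10000 reads. The study gives more reads before down-sampling for the β-chain than for the α-chain, and the part of that difference in the results was not tested. No molecular identifiers are mentioned in the methods, so reads and not molecules were counted. Values after ± are SDs over mice, or over pairs of mice where stated, and each mouse is a separate animal. CD8 and Thy1 cannot be checked in receptor libraries. The receptor join of invariant NKT cells took 0.02 to 0.25% of α-chain reads and that of MAIT cells 0 to 0.06%, and TRBV14, the V segment of the Pmel-1 β-chain, took 3.99 to 6.43% of β-chain reads. Mice CTX/CD4 1 and CTX/CD4 2 stood apart from all other pairs in the β-chain: they had 148 clonotypes in common by nucleotide sequence, V and J, against 20 to 52 in the other 27 pairs. In the α-chain they had 339 in common, against 189 to 335. The β-chain sequences found in these 2 mice and in no other numbered 152 and took 9.61% of the reads of CTX/CD4 1 and 2.16% of those of CTX/CD4 2. The corresponding α-chain sequences numbered 200 and took 9.10% and 2.82%. Sequences found only in a pair were not counted for the other pairs, so whether these numbers are unusual is not shown. Receptors that both mice made and sequences that passed between their libraries cannot be told apart in these files. The clonotype, overlap and sharing results are therefore also given without this pair, or without the sequences found only in it (left out of CTX/CD4 2), a choice made after seeing the data.

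The β-chain held more clonotypes than the α-chain in every mouse. In 10000 reads the α-chain libraries held 5043 to 7695 clonotypes with a median of 6880, and the β-chain libraries held 5671 to 8529 with a median of 7758. The ranges of the chains overlapped, but within each mouse the β-chain had 621 to 1115 more, with a mean difference of 860 ± 168 (SD, n = 8 mice). The exact two-sided sign-flip permutation test over the mice gave p = 0.00781, the smallest that 8 mice allow, and 0.00859 after Benjamini-Hochberg adjustment over the 11 measures compared between chains. With the sequences particular to the CTX/CD4 1 and CTX/CD4 2 pair left out of CTX/CD4 2, the mean difference was 866. Without pairing the chains by mouse, the same difference gave an exact permutation p of 0.0839.

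The larger number of β-chain clonotypes lay among those of 1 read. Such clonotypes made up 68.0 to 84.0% of an α-chain library (mean 74.8% ± 5.24, SD, n = 8) and 77.4 to 89.4% of a β-chain library (82.9% ± 4.30). The share was higher in the β-chain in all 8 mice, by 5.40 to 10.7 percentage points (exact sign-flip permutation test, adjusted p = 0.00859). Clonotypes of 2 to 9 reads went the other way, with a mean of 1605 ± 242 (SD, n = 8) in the α-chain, against 1218 ± 202 in the β-chain. Counted over clonotypes of at least 2 reads, the order of the chains turned, with 1642 ± 235 in the α-chain, against 1251 ± 210 in the β-chain and a β minus α difference of -391 (exact sign-flip permutation test, adjusted p = 0.00859). Clonotypes of at least 10 reads were few in both chains, 12 to 102 per α-chain library and 8 to 95 per β-chain library. They took 2.42 to 25.9% of α-chain reads and 1.67 to 23.5% of β-chain reads, and CTX/CD4 5 was highest in both chains.

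**Figure D1:**
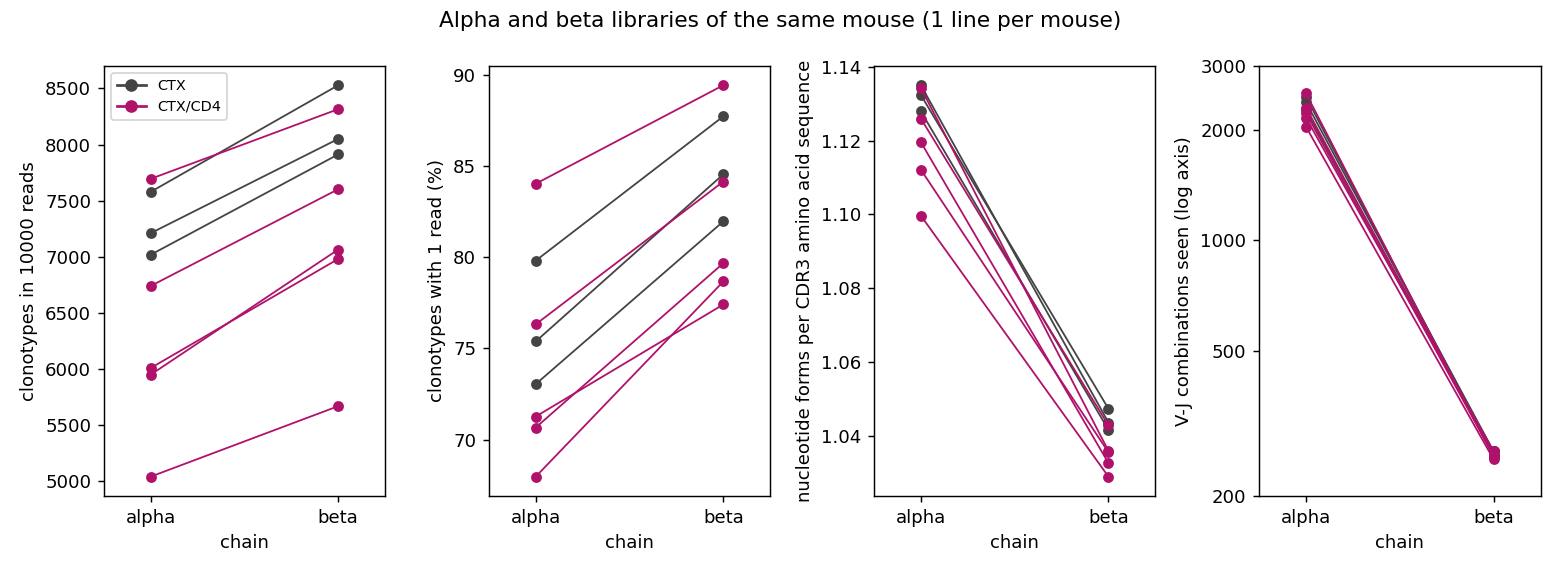
Each line joins the α-chain and β-chain library of a single mouse for clonotypes in 10000 reads, the percentage of clonotypes with 1 read, nucleotide forms per CDR3 amino acid sequence and V-J combinations seen (log axis), with CTX mice in grey and CTX/CD4 mice in magenta. All 8 lines rise in the first 2 panels and all 8 fall in the last 2, where the ranges of the chains do not overlap.

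Mice that held many clonotypes in the α-chain also held many in the β-chain. Over the 8 mice, Pearson's r between the chains was 0.983 for clonotypes (exact permutation p = 0.000124, adjusted p = 0.000496 over 4 relations) and Spearman's rho was 0.952 (exact permutation p = 0.00114, adjusted p = 0.00456). With the mice farthest from the median, CTX/CD4 1 and CTX/CD4 5, left out, r was 0.983 (exact permutation p = 0.00278), and within treatment groups it was 0.976. For the share of clonotypes with 1 read, r was 0.954 (exact permutation p = 0.000273, adjusted p = 0.000546) and rho 0.905 (exact permutation p = 0.00456, adjusted p = 0.00913). Without CTX/CD4 1 and CTX/CD4 2, r was 0.951 (exact permutation p = 0.00833), and within groups it was 0.963. Mean CDR3 length had r = -0.374 (exact permutation p = 0.359) and rho = -0.119 (exact permutation p = 0.793) between chains. Mean unassigned nucleotides had r = -0.270 (exact permutation p = 0.521) and rho = -0.524 (exact permutation p = 0.197). Neither of these relations passed the test, with adjusted p values of 0.479 and 0.521 for r. Without the 2 mice farthest from the median, their r was -0.171 and -0.604, and within groups it was -0.585 and -0.270.

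The CDR3 was slightly longer in the β-chain. Mean length, counted in amino acids over clonotypes with both anchor residues included, was 13.63 to 13.69 in α-chain libraries and 13.85 to 13.93 in β-chain libraries, with no overlap. The β-chain was longer by 0.218 ± 0.0387 residues (SD, n = 8; exact sign-flip permutation test, adjusted p = 0.00859). Both chains had their most frequent length at 14 residues, which 30.1% ± 0.627 of α-chain and 29.9% ± 0.476 of β-chain clonotypes had. The chains differed on either side of it: 13 residues were found in 23.6% of α-chain and 18.8% of β-chain clonotypes, and 15 residues in 16.7% and 21.7%. The spread of lengths within a library, given as an SD over clonotypes, was 1.495 residues on average in both chains, with a difference of 0.000441 ± 0.0561 (n = 8; exact sign-flip permutation p = 0.992). This SD was 1.45 to 1.59 in α-chain and 1.46 to 1.51 in β-chain libraries. Over clonotypes of at least 2 reads it was 0.0882 higher in the β-chain (exact sign-flip permutation test, adjusted p = 0.0156).

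**Figure D2:**
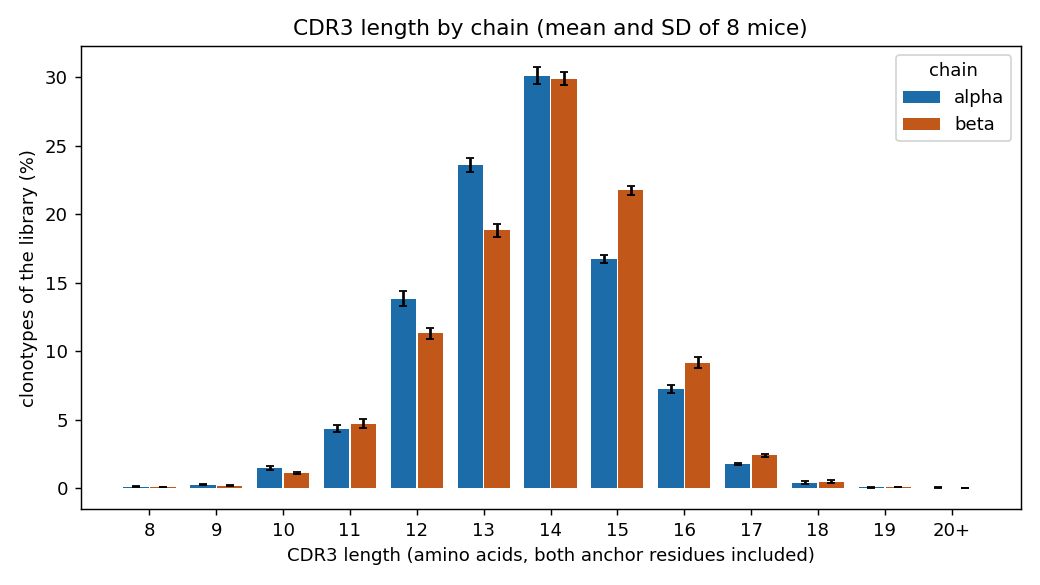
Bars give the mean percentage of clonotypes of a library at each CDR3 length from 8 amino acids up, α-chain in blue and β-chain in orange, with error bars of 1 SD over 8 mice. Both chains peak at 14 residues, with more α-chain clonotypes at 13 and more β-chain clonotypes at 15.

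J bases took up more of the CDR3 in the α-chain, and V bases more of it in the β-chain. By the deposited positions, V took 12.5 ± 0.0543 bases in the α-chain, against 14.1 ± 0.0334 in the β-chain (means of 8 library means, SD), a difference of 1.60. J took 27.0 ± 0.0346 bases in the α-chain, against 18.6 ± 0.0381 in the β-chain, a difference of -8.37. Neither measure overlapped between chains, and both passed the exact sign-flip permutation test (adjusted p = 0.00859). The germline lengths differ in the same direction: the part of J that lies inside the CDR3 is 20 to 35 bases long over the 44 α-chain J names, with a median of 30, and 19 to 25 over the 12 β-chain names. A D segment was called in 72.6% ± 0.409 of β-chain clonotypes and covered 8.24 ± 0.0552 bases where called. In the α-chain, which has no D segment of its own, 1.99% ± 0.168 of clonotypes carried a call of a δ-chain D segment.

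More unassigned nucleotides were found in the β-chain. The α-chain held 2.10 ± 0.0236 per clonotype and the β-chain 2.99 ± 0.0459 (SD, n = 8). Library means ran from 2.08 to 2.15 in the α-chain and from 2.90 to 3.04 in the β-chain, a difference of 0.888 ± 0.0570 (exact sign-flip permutation test, adjusted p = 0.00859). In β-chain clonotypes with a D call, 1.24 ± 0.0270 unassigned bases lay between V and D and 1.30 ± 0.0256 between D and J, so that each of these junctions held fewer than the single junction of the α-chain. Their sum of 2.53 ± 0.0418 was above the α-chain mean by 0.429 (exact sign-flip permutation test, adjusted p = 0.00859). β-chain clonotypes without a D call held 4.21 ± 0.0689, and bases of a D too short to be called are counted as unassigned there. With all D bases counted as unassigned, the β-chain was 6.76 bases above the α-chain.

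Joins with 0 unassigned nucleotides were more frequent in the α-chain. They made up 30.3 to 32.0% of α-chain clonotypes (mean 31.4% ± 0.615) and 15.2 to 16.5% of β-chain clonotypes (16.0% ± 0.420), a ratio of 1.96. The β minus α difference was -15.3 ± 0.836 percentage points (n = 8; exact sign-flip permutation test, adjusted p = 0.00859). The unassigned bases of the α-chain were richer in G and C. G and C made up 69.4% ± 0.813 of them in the α-chain, against 59.4% ± 0.447 in the β-chain, a difference of -10.1 ± 0.570 percentage points (exact sign-flip permutation test, adjusted p = 0.00859). G alone accounted for 41.2% ± 0.510 of unassigned bases in the α-chain, against 32.8% ± 0.215 in the β-chain, and A for 15.6% ± 0.406 and 22.5% ± 0.313.

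Part of these values depends on where the segment ends are set. In 38.9% ± 0.883 of α-chain and 30.8% ± 0.632 of β-chain clonotypes, the deposited V or J end ran past the last base that the germline segment could supply. The deposited V end reached the J start, or went beyond it, in 21.4% ± 0.527 of α-chain and 2.84% ± 0.205 of β-chain clonotypes. When the ends were set again by exact match to the GRCm38 segments, a choice made after seeing the data, unassigned nucleotides numbered 3.20 ± 0.0216 in the α-chain, against 4.31 ± 0.0503 in the β-chain (SD, n = 8). The difference of 1.11 kept its direction in the exact sign-flip permutation test (adjusted p = 0.00859). Joins with 0 unassigned nucleotides then made up 12.4% ± 0.369 of α-chain and 5.85% ± 0.378 of β-chain clonotypes. The difference narrowed to -6.58 percentage points, while the ratio of the α-chain to the β-chain did not shrink. The share of G and C was 65.9% ± 0.785 and 61.6% ± 0.350 after the exact match, and its difference narrowed to -4.24 percentage points (both differences: exact sign-flip permutation test, adjusted p = 0.00859). By the same match, V had lost 2.30 ± 0.0443 bases in the α-chain, against 3.00 ± 0.0519 in the β-chain, and J had lost 3.24 ± 0.0568 and 2.91 ± 0.0357. The exact match can assign an added base to a segment by chance and ends at a first mismatch, so neither count is a direct measure of added nucleotides.

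**Figure D3:**
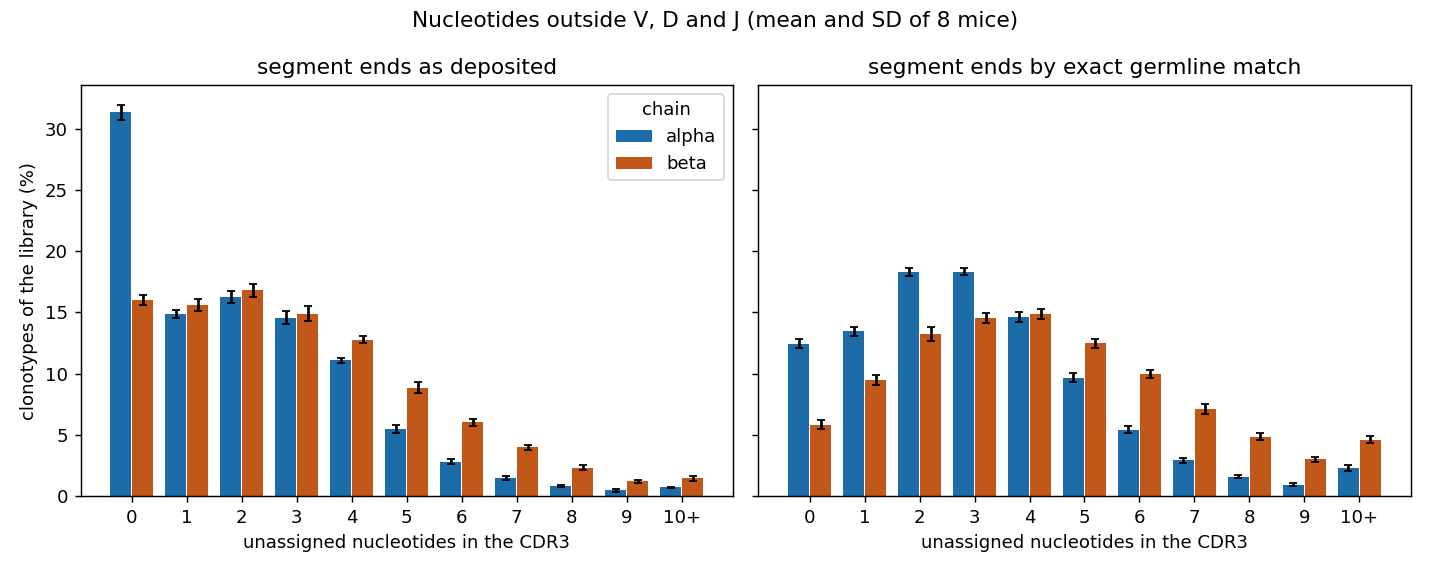
Bars give the mean percentage of clonotypes by number of unassigned nucleotides in the CDR3, α-chain in blue and β-chain in orange, with 1 SD over 8 mice; the left panel uses the deposited segment ends and the right panel an exact match to the germline. The α-chain lies to the left of the β-chain in both panels, and its 31.4% of clonotypes with 0 unassigned bases in the left panel becomes 12.4% in the right.

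The same CDR3 protein sequence was encoded by more nucleotide sequences in the α-chain. For each CDR3 protein sequence, α-chain libraries held 1.10 to 1.14 nucleotide forms (mean 1.123 ± 0.0123, SD, n = 8) and β-chain libraries 1.03 to 1.05 (1.038 ± 0.00626), with no overlap. The β minus α difference was -0.0849 ± 0.00848 (exact sign-flip permutation test, adjusted p = 0.00859). Amino acid sequences with at least 2 forms made up 9.53% ± 0.857 in the α-chain, against 3.25% ± 0.487 in the β-chain, and the sequence with the most forms in a library had 5 to 9 forms in the α-chain, against 4 to 6 in the β-chain. Over the 5000 most abundant clonotypes of each library, which gives both chains the same number, the difference was -0.0884.

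Most of these forms carried different V names. Of the pairs of forms with the same amino acid sequence within a library, 19.6% ± 1.65 in the α-chain, against 25.2% ± 2.68 in the β-chain (SD, n = 8) had the same V and J. A further 25.8% ± 1.62 in the α-chain, against 7.79% ± 2.16 in the β-chain had the same J and another V of the same subgroup, meaning the same number before any copy letter or hyphen. The rest, 54.6% ± 1.43 and 67.0% ± 2.89, combined V subgroups or, rarely, J segments, and 99.98% and 99.4% of all pairs had the same J. Counted per amino acid sequence, V and J, forms numbered 1.026 ± 0.00362 in the α-chain, against 1.010 ± 0.00123 in the β-chain, and the difference shrank to -0.0152 (exact sign-flip permutation test, adjusted p = 0.00859). With all V names of a subgroup merged it was -0.0463. Among the pairs with the same V and J, 79.2% ± 2.62 in the α-chain, against 51.1% ± 6.48 in the β-chain differed at a single base. A difference within the first 9 or last 9 bases of the CDR3, which V and J encode, was found in 18.6% ± 1.92 of these α-chain pairs and 2.42% ± 1.12 of β-chain pairs. The part of sequencing and PCR errors in the forms was not tested.

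The α-chain used almost 9 times as many V-J combinations as the β-chain, counting those seen in a single read. In 10000 reads, 2043 to 2520 combinations were seen in the α-chain (mean 2295 ± 158, SD, n = 8) and 252 to 265 in the β-chain (260 ± 4.82), a ratio of 8.83 (exact sign-flip permutation test, adjusted p = 0.00859). The β-chain names allow at most 288 combinations, fewer than any α-chain library held. The p value therefore adds nothing on how the segments were used. A combination held on average 2.89 ± 0.227 clonotypes in the α-chain, against 28.9 ± 3.41 in the β-chain. A β-chain library used 87.5 to 92.0% of the 288 combinations that its 24 V and 12 J names allow, and an α-chain library 40.0 to 49.4% of 5104. Over the 8 mice together, 4105 α-chain combinations (80.4%) and 282 β-chain combinations (97.9%) were seen. All 8 libraries held 740 of the α-chain combinations, 18.0% of those seen, and 238 of the β-chain combinations, 84.4%. The α-chain number was still rising with depth: at 5000 reads it was 1725 ± 120, against 250 ± 5.49 in the β-chain. Combinations of at least 3 reads numbered 1054 ± 86.7 in the α-chain, against 238 ± 3.38 in the β-chain, a smaller contrast. Many α-chain V names belong to duplicated copies marked by a letter D or N. With such copies merged, a choice made after seeing the data, 1396 ± 58.9 combinations were seen in the α-chain, and the β-chain, which has no such names, stayed at 260. With whole V subgroups merged, which also joins distinct genes such as TRBV13-1 and TRBV13-3, 676 ± 20.5 were seen in the α-chain, against 224 ± 4.82 in the β-chain. Both differences passed the exact sign-flip permutation test (adjusted p = 0.00859), with the same limit from the number of β-chain names.

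Single segments took larger shares in the β-chain, which has fewer V and J names. The V segments with the largest mean shares of clonotypes were TRBV13-3 (chr6:41130147-41130585, 10.7% ± 0.856, SD, n = 8), TRBV16 (chr6:41151740-41152230, 10.4% ± 1.14) and TRBV13-1 (chr6:41116007-41116468, 10.1% ± 0.824). In the α-chain they were TRAV12N-3 (chr14:53240745-53241244, 5.96% ± 1.05), TRAV16N (chr14:53351028-53351621, 5.87% ± 0.463) and TRAV7-5 (chr14:53530786-53531313, 3.49% ± 0.579). Of the J segments, TRBJ2-7 (chr6:41543810-41543856) took 21.9% ± 0.665, TRBJ2-1 13.5% ± 0.402 and TRBJ2-5 11.9% ± 0.346. TRAJ22 (chr14:54197248-54197307), the leading J of the α-chain, took 5.59% ± 0.307, TRAJ26 4.77% ± 0.281 and TRAJ30 4.63% ± 0.325. TRBJ2-7 stood in each of the 3 leading β-chain combinations, with TRBV13-3 (151 to 222 clonotypes per library), TRBV16 (114 to 202) and TRBV13-1 (124 to 200). The 3 leading α-chain combinations held TRAV12N-3 with TRAJ15 (18 to 46 clonotypes), TRAJ31 (18 to 49) and TRAJ23 (17 to 40), and the last of these is the combination of the α-chain forms printed above. These shares were given by the deposited names and were not compared by a test. Clonotypes are divided over 24 V and 12 J names in the β-chain, against 116 and 44 in the α-chain, where copies count as separate names. The shares were not set against equal use of the names.

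The use of D, V and J segments was also read against their order along the chromosome. In the β locus TRBD2 lies downstream of the Trbj1 cluster, and ordinary deletion does not join it to a Trbj1 segment. Clonotypes called TRBD2, 32.5% ± 0.750 of the β-chain (SD, n = 8), carried a TRBJ2 segment in 94.8% ± 0.310 and a TRBJ1 segment in 5.16% ± 0.310. Clonotypes called TRBD1, 40.1% ± 0.877, were spread over both clusters, with 43.6% ± 2.01 on TRBJ1 and 56.4% ± 2.01 on TRBJ2. The other 27.4% ± 0.409 had no D call. The called parts were short, 7.54 ± 0.0532 bases for TRBD1 and 9.11 ± 0.0481 for TRBD2. How often a call could not tell the D segments apart was not counted, so these shares are shares of calls. In the α locus the Traj segments are numbered from the far end, so that high numbers lie nearest to the V segments. The 112 TRAV names used were split into 3 parts of 37 or 38 by position. The part nearest to J was joined to segments numbered TRAJ40 or higher in 45.0% ± 0.807 of its clonotypes, against 20.7% ± 2.08 in the middle part and 23.6% ± 1.70 in the farthest part, without overlap between the nearest part and the others (43.7 to 46.2% against 18.0 to 26.8%). The farthest part did not go on in that direction, and its share was above that of the middle part. Segments numbered TRAJ20 or lower took 11.2% ± 0.531, 31.5% ± 2.84 and 24.5% ± 2.47 of the 3 parts. These splits were chosen after seeing the data and are given without a test. The 3 parts rest on deposited V names, which were not always the same between libraries. Of α-chain nucleotide sequences found in at least 2 mice, 65.0% stood under several V names. How often such names lie in different parts was not counted.

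Clonotypes were more often found again in another mouse in the α-chain. A clonotype was counted as shared when CDR3 amino acid sequence, V and J were the same. The 28 pairs of mice shared 294 to 519 α-chain clonotypes (median 406) and 102 to 254 β-chain clonotypes (median 145). Without the pair of CTX/CD4 1 and CTX/CD4 2, which shared 506 and 254, the highest β-chain count was 185 and the highest α-chain count 519. Because libraries differ in their number of clonotypes, the count was divided by the product of both libraries' numbers and given as shared clonotypes per 1000000 possible pairs. This index was 9.11 to 11.6 in the α-chain (median 9.95) and 2.42 to 4.42 in the β-chain (median 2.66; 2.42 to 3.19 without that pair). The α-chain was higher in 28 of 28 pairs, by a ratio of 2.63 to 4.49, and the lowest ratio was that of CTX/CD4 1 with CTX/CD4 2. Pairs share mice and are not independent, so a test was made only over 4 pairs that share none. There the index was 10.0 in the α-chain, against 2.76 in the β-chain, a difference of 7.25 ± 0.626 (SD, n = 4 pairs; exact two-sided sign-flip permutation p = 0.125, the smallest that 4 pairs allow), so the design cannot reach 0.05.

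**Figure D4:**
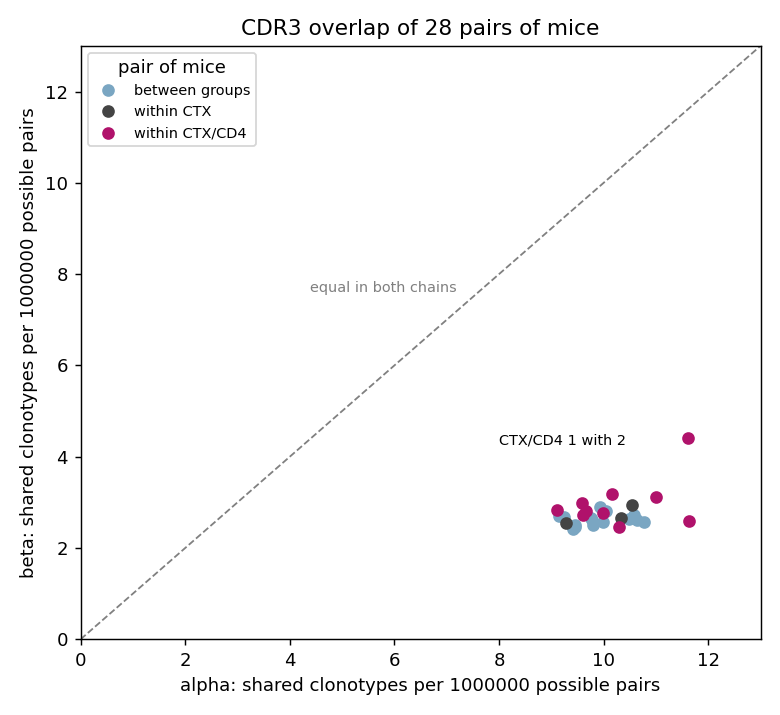
Each point is a pair of mice, placed by its shared α-chain clonotypes per 1000000 possible pairs (horizontal) and its shared β-chain clonotypes per 1000000 possible pairs (vertical), colored by whether the pair lies within or between treatment groups. All 28 points lie below the dashed line of equal values, and the pair of CTX/CD4 1 with CTX/CD4 2 is the highest in the β-chain at 4.42.

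The index was also read within and between treatment groups. Its median was 10.3 within CTX (3 pairs), 10.1 within CTX/CD4 (10 pairs) and 9.79 between groups (15 pairs) in the α-chain. In the β-chain it was 2.65, 2.82 and 2.61. Without CTX/CD4 1 with CTX/CD4 2, the 9 other pairs within CTX/CD4 had a median of 9.98 in the α-chain, against 2.80 in the β-chain. By nucleotide sequence, V and J the pairs shared 189 to 339 α-chain and 20 to 148 β-chain clonotypes, with a β-chain maximum of 52 without CTX/CD4 1 and CTX/CD4 2. V names were not always the same between libraries. Of nucleotide sequences found in at least 2 mice, 65.0% of 5555 α-chain and 43.5% of 1312 β-chain sequences stood under several V names in different libraries. The α minus β difference of the index over the 4 separate pairs was 12.1 with copy letters merged, 17.6 with V subgroups merged and 24.2 with CDR3 amino acids alone. These definitions change the number of clonotypes, so the values share a direction but not a scale.

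Over all mice, 44635 α-chain and 56147 β-chain clonotypes were told apart by amino acids, V and J. Of these, 10.6% of the α-chain and 4.84% of the β-chain were found in at least 2 mice. Without the sequences found only in CTX/CD4 1 and CTX/CD4 2, these shares were 10.4% and 4.64%. In all 8 mice there were 23 α-chain clonotypes, read 8.07 times per mouse on average. A single β-chain clonotype was found in all 8, the TRBV14 TRBJ1-6 sequence printed above, which carries the V segment of the Pmel-1 β-chain and was read 27.5 times per mouse on average. By CDR3 nucleotide sequence alone, whatever the V and J names, 31 α-chain and 2 β-chain sequences were found in all 8 mice.

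Clonotypes found in at least 2 mice held fewer unassigned nucleotides than those of 1 mouse in both chains. In the α-chain the mean fell from 2.42 in clonotypes of 1 mouse to 1.37 in those of 2 mice, 0.850 in those of 4 and 0.465 in those of 7, and it was 0.835 in those of 8. In the β-chain it was 3.12 in clonotypes of 1 mouse, 1.99 in those of 2, 1.54 in those of 3, 1.68 in those of 4 and 1.41 in those of 5 (21 clonotypes), without a steady fall beyond 3 mice. Without the sequences found only in CTX/CD4 1 and CTX/CD4 2, the β-chain means for 1 to 5 mice were 3.13, 1.93, 1.55, 1.70 and 1.57. The 15 β-chain clonotypes found in more than 5 mice are too few to follow further. Shared β-chain clonotypes were also shorter: those in at least 2 mice had 13.3 residues on average and those in 1 mouse 14.0, against 13.6 and 13.7 in the α-chain. These are descriptions over the 8 mice together, since the mice that define sharing are the mice measured.

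**Figure D5:**
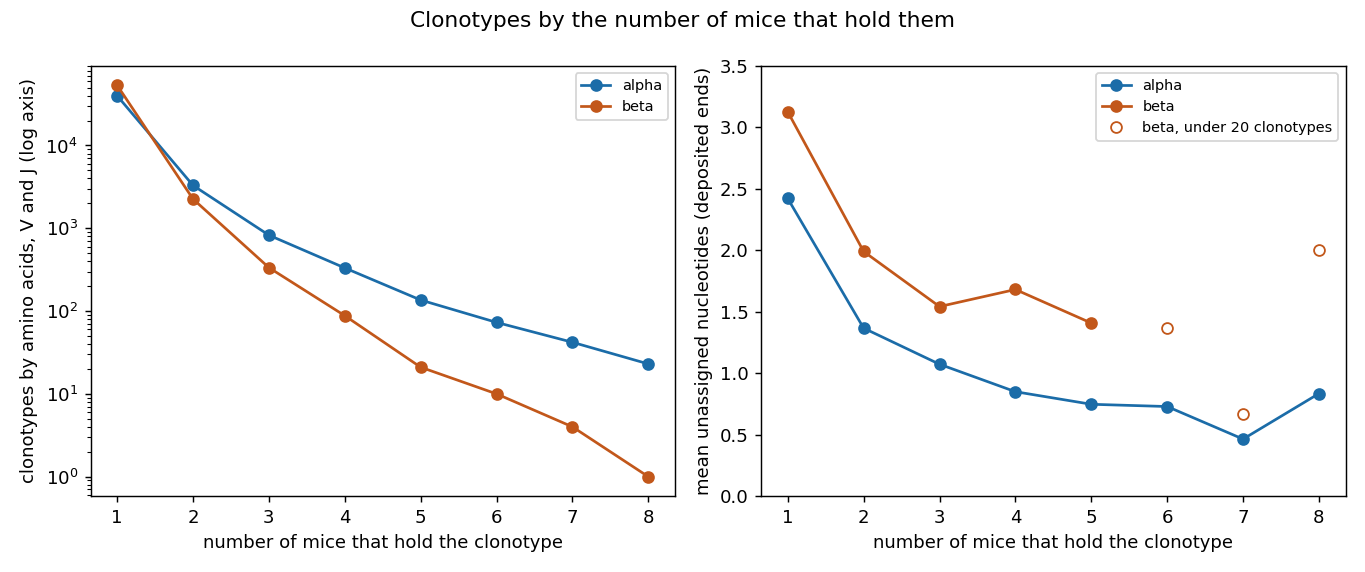
The left panel gives the number of clonotypes (amino acids, V and J; log axis) and the right panel their mean unassigned nucleotides by deposited ends, both against the number of mice that hold the clonotype, α-chain in blue and β-chain in orange. Open circles mark β-chain groups of under 20 clonotypes; the α-chain has more clonotypes in every group from 2 to 8 mice and fewer unassigned nucleotides in each of the 8 groups.

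The chains also differed within classes of unassigned nucleotides by the deposited ends. The chains fill the classes of 1 to 3 and of at least 4 differently, so only the class of 0 holds the number equal. It does so by the deposited ends alone, where V reached J or went beyond it in 21.4% of α-chain and 2.84% of β-chain clonotypes. The class held 31.4% of α-chain and 16.0% of β-chain clonotypes by these ends, against 12.4% and 5.85% by the exact match. Sharing by class was not counted with the exact match. Called D bases of the β-chain are not counted as unassigned here. Among clonotypes with 0 unassigned nucleotides, 37.4% ± 0.986 of a mouse's α-chain clonotypes and 21.4% ± 0.935 of its β-chain clonotypes were found in another mouse (SD, n = 8). With 1 to 3 the shares were 24.2% ± 1.12 and 10.7% ± 0.885, and with at least 4 they were 7.84% ± 0.964 and 5.95% ± 0.705. Over all clonotypes they were 24.6% ± 0.996 and 10.7% ± 0.598. The α-chain share was higher in 8 of 8 mice at 0, at 1 to 3 and at 4 or more unassigned nucleotides, although the ranges over mice overlapped at 4 or more (6.73 to 9.62% against 5.24 to 7.23%). Without the sequences found only in CTX/CD4 1 and CTX/CD4 2, the shares were 37.2% and 20.9% at 0, 23.9% and 10.3% at 1 to 3, and 7.48% and 5.60% at 4 or more, and the α-chain was again higher in 8 of 8 mice. Mice share these clonotypes with each other, so the shares were not tested.

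None of the chain differences compared by treatment passed the test. For 6 measures, the β minus α difference of each mouse was compared between groups by an exact two-sided permutation test over the 56 splits of the mice, which cannot give a p below 0.0179. The difference in clonotypes was 895 ± 55.0 in CTX (SD, n = 3) and 840 ± 216 in CTX/CD4 (n = 5; exact permutation p = 0.768). The difference in V-J combinations was -2106 ± 103 in CTX and -1993 ± 178 in CTX/CD4, which gave the lowest of the 6 p values (exact permutation p = 0.357). The differences in unassigned nucleotides were 0.883 ± 0.0641 and 0.891 ± 0.0600 (exact permutation p = 0.946), and those in mean CDR3 length 0.212 ± 0.0295 and 0.221 ± 0.0463 (exact permutation p = 0.839). All 6 had an adjusted p of 0.946, and with groups of 3 and 5 mice only large differences could have been detected.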

How the data were processed

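Total RNA of sorted cells was reverse transcribed, and both TCR chains were amplified by nested PCR with a mouse TCR profiling kit. The authors aligned the reads with MiXCR, used VDJtools to split the chains, and then drew 10000 reads from every library. What they deposited for a clonotype is the count of drawn reads with its CDR3 nucleotide sequence. The submitters' processing notes name bcl2fastq and mm10; the MiXCR version and its segment library are not given in the sources used here. The deposited fraction of reads was not used. Segment ends are deposited as positions counted from 0, with -1 where a segment was not called.

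Both files of each mouse were read with pandas 2.3.3 under Python 3.11.15, tests used numpy 2.4.6 and scipy 1.17.1, and figures were drawn with matplotlib 3.10.9. Unassigned nucleotides are bases after the V end and before the D or J start, and bases after the D end and before the J start. Clonotypes without a V end (0 to 8 per library) were left out of the counts of V, J and unassigned bases. Chains were compared by the exact two-sided sign-flip permutation test over mice, with Benjamini-Hochberg adjustment over 11 measures and a threshold of 0.05. Germline ends came from GENCODE vM21 transcripts (GRCm38), with D matches of at least 5 bases. The functions for the tests, the correlation, the adjustment and the thinning of reads were checked on inputs with known answers. Those for unassigned bases and the exact match were checked on simulated sequences. The functions for overlap, sharing and the merging of V names were not checked in this way.

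Named sequences were chosen by rule for each chain: the most nucleotide forms of a CDR3 in a library, the most mice, the most unassigned bases at 10 or more reads, the most reads, and the 3 leading V, J and V-J combinations. The measures, rules and lists were chosen with earlier results of these data known. Alternatives covered depth, clonotypes of 1 read, the canonical CDR3 ends, the definition of clonotypes, joins and overlap, segment ends, the test, the pairing and each mouse left out in turn.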

Additional observations from a re-analysis of the deposited data

Results flagged for a closer look

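Mean CDR3 length of the β-chain in CTX/CD4 1 was 13.93 residues, the highest of the CTX/CD4 group. Its gap to the next mouse made up 0.748 of the spread between lowest and highest, which is past the critical value of Dixon's test for 5 samples. The β minus α difference in mean CDR3 length of the same mouse was 0.302 residues, with a gap of 0.763 of that spread. Of 33 such groups of values tested, 2 passed the limit, both resting on the same β-chain library, and chance passes about 1 in 20. Without this mouse the difference in length between chains was 0.206 residues, and it kept its direction in each of the other 7 mice.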

How the results depend on the processing

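Of 168 values of the chain differences under alternatives, 158 kept their direction and their side of the threshold, as did 45 of 48 relations across mice, 70 of 78 differences by treatment and 17 of 17 values of the overlap, where no p below 0.125 was possible. Over clonotypes of 2 or more reads, the β minus α difference in clonotypes turned to -391, its difference by treatment to 163 (exact permutation p = 0.0357, adjusted p = 0.214), the difference in the SD of CDR3 length rose to 0.0882 and passed the threshold, and the correlation of unassigned nucleotides turned to 0.713 (exact permutation p = 0.0443, adjusted p = 0.0591). Weighted by reads, the difference in the SD of length was 0.0549 and passed, and over canonical CDR3s it was -0.00798. At 5000 reads the difference by treatment in clonotypes was 31.3. With the germline match, added after seeing the data, the correlation of unassigned nucleotides was 0.414. The causes of these changes were not tested. Without the pairing of chains by mouse (no replicate block), the difference of 860 in clonotypes lost its call. The replicate numbers as a block across treatments gave a difference in unassigned nucleotides of -0.0268 by treatment; they were given as labels only, an exact sign-flip permutation test over 3 pairs cannot go below p = 0.25, and no call changed.

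Leaving out each mouse in turn, the difference in the SD of length ran from -0.00885 to 0.0139, the differences by treatment in length from -0.0112 to 0.0212 and in unassigned nucleotides from -0.0214 to 0.0420, and the correlation of length from -0.741 to 0.320; none of these passed the threshold. The 10 chain differences that passed kept their direction and adjusted p of 0.0172 without any single mouse. The index of overlap cannot be compared between its definitions, since each changes the number of clonotypes. At 10000 reads, combinations and clonotypes of 1 read were still being added, which limits statements on their totals.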
